A study of Mus musculus with 3 samples.

Results

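Guanylate-binding proteins are encoded in the mouse by a family of interferon-induced genes, and 10 of them, Gbp2, Gbp2b, Gbp3, Gbp4, Gbp5, Gbp6, Gbp7, Gbp8, Gbp9 and Gbp10, were followed here among the 37646 genes listed in the counts. They were taken by gene symbol. The family was chosen because its level was low in 1 tumour, so the differences between tumours below are a description and carry no test.

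The libraries came from 3 splenic lymphomas of pBIC mice on the C57BL/6 strain, which develop diffuse large B cell lymphoma of the activated B cell kind, with 1 library per tumour. All 3 share the genotype p53F/F, Blimp1F/F, IKK2castopF/stopF and Cg1Cre/+: floxed alleles of Trp53 and of Prdm1, an active IKK2 allele behind a floxed stop, and Cre recombinase expressed from the Ighg1 locus, which is active in B cells that have been stimulated. No treatment was given, the mice were moribund, and the labels state no age. B220+GFP+ cells were sorted and their polyadenylated RNA was read as single reads of 50 nt, with 15022902 to 15141009 counts per library. Normal B cells were not analysed here, so no level below is set against a normal control. Nothing in the labels says outright that the tumours came from separate animals, so any p-value measures only the spread between these samples.

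As background, interferon gamma binds its receptor, the kinases JAK1 and JAK2 are activated, and the signal reaches gamma-activated sites in DNA. Interferon regulatory factors such as IRF1, itself induced by interferon gamma, bind interferon-stimulated response elements (ISRE). Guanylate-binding proteins are large GTPases of the dynamin superfamily that assemble on the vacuoles and surfaces of intracellular microbes, where they help to expose the microbe and to trigger inflammasomes. Gbp2, Gbp2b (also called Gbp1) and Gbp5 carry a lipid-attachment motif at their end that anchors them to membranes.

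The genes lie in 2 clusters. On chromosome 3, Gbp5, Gbp7, Gbp3, Gbp2b and Gbp2 follow each other on the forward strand between 142493978 and 142638008 (GENCODE M21 on GRCm38, the assembly also called mm10). On chromosome 5, Gbp8, Gbp9, Gbp4, Gbp10 and Gbp6 lie on the reverse strand between 105014150 and 105293698. The RefSeq promoter table (GRCm38.p6), which gives 250 bases before to 50 bases after each start, matched the 5 genes of chromosome 3. Gbp4, Gbp6, Gbp8, Gbp9 and Gbp10 had no entry.

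All 5 matched genes held the core of an ISRE in their promoter, searched on both strands as GAAA, any 2 bases and GAAA again. The stretches of 40 bases around it are shown because they carry the element that interferon regulatory factors are known to read. They are printed on the coding strand, on which the core reads in its reverse complement, and capitals mark the core:
Gbp2: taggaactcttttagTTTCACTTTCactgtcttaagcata
Gbp2b: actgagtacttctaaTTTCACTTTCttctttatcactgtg
Gbp3: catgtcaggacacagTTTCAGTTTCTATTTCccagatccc
Gbp5: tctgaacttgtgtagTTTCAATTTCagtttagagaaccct
Gbp7: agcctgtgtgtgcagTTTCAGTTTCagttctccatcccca

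These are chr3:142620589-142620628 for Gbp2, chr3:142594695-142594734 for Gbp2b, chr3:142559984-142560023 for Gbp3, chr3:142496754-142496793 for Gbp5 and chr3:142530268-142530307 for Gbp7, all on the forward strand. The core letters were the same in Gbp2 and Gbp2b and the same in the first core of Gbp3 and the core of Gbp7. Gbp3 had 2 cores that overlap each other, in 1 of its 2 RefSeq promoters. Of all 32851 promoter windows in the table, 3.44% held the core. Among 16 windows of 11 genes that flank the clusters, 1 did, a window of Pdlim5. The core began 59 bases before the RefSeq start of Gbp2, 137 before that of Gbp2b, 45 before that of Gbp3, 165 before that of Gbp5 and 53 before that of Gbp7. GENCODE places the start of Gbp2 further upstream, at 142620602, so its core lies just after that start. For Gbp5 the GENCODE start is upstream of the RefSeq one, at 142493978.

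Gamma-activated sites, searched as TTCNNNGAA, were found in 2 of the 5 genes, Gbp5 and Gbp7, with 2 sites each. Of all windows in the table, 8.30% held 1 or more. No site overlapped an ISRE core. The 250 bases before the start of Gbp7 (chr3:142530086-142530335, forward strand) are shown because they hold both kinds of element close together, with the gamma-activated sites and, nearest the start, the ISRE core in capitals:
Gbp7: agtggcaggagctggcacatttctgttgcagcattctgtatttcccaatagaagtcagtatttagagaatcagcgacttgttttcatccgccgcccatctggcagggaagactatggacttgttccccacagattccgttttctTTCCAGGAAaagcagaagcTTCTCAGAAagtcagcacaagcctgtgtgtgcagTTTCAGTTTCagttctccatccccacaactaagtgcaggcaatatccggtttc

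**Figure D1:**
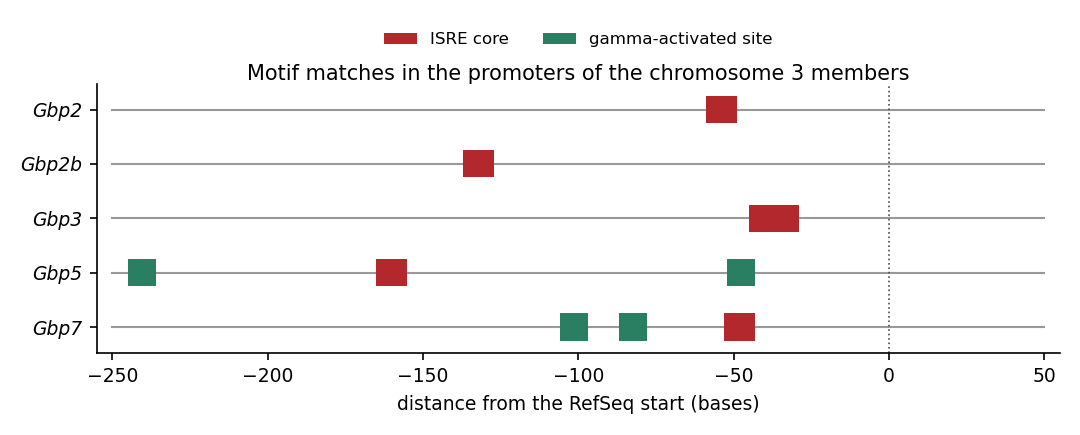
Position of ISRE cores (red) and gamma-activated sites (green) in the promoters of the 5 chromosome 3 genes, with the distance from the RefSeq start in bases on the horizontal axis. Each gene has at least 1 ISRE core, and Gbp5 and Gbp7 also have 2 gamma-activated sites each.

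A match is a run of letters and not a measured binding site, and no match in this window says nothing of a factor. For tumour 3 minus tumour 1 in log2(CPM + 1), Gbp5 and Gbp7, which have gamma-activated sites, gave -2.26 and -2.40. The 3 genes without one in the window gave -1.20 for Gbp3, -2.60 for Gbp2 and -3.66 for Gbp2b. The family was chosen for these differences, and a link between the sites and the levels was not tested. CPM here is the count of a gene over the library's total for the genes that passed a filter on low counts, multiplied by 1e6, with TMM factors in the total and no division by length.

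In tumour 1 the whole family took 0.287% of the counts (0.284 to 0.290%), against 0.213% (0.210 to 0.215%) for tumour 2 and 0.0798% (0.0783 to 0.0812%) for tumour 3. The ranges are exact binomial intervals at 95% by the method of Clopper and Pearson, and cover counting error only, since the libraries carry no molecular identifiers. Per length, the summed level was 2777, 1913 and 634 TPM (counts divided by union exon length and scaled to the same total in each library) in tumours 1, 2 and 3. Tumour 3 thus held 4.38-fold less than tumour 1 and 3.02-fold less than tumour 2 in TPM. In summed CPM the same folds were smaller, at 3.58 and 2.83. In bulk RNA a smaller number of expressing cells and less RNA per cell cannot be told apart.

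The chromosome 3 cluster is known from mice that lack it, which control Toxoplasma poorly. All 5 of its members were lowest in tumour 3. Gbp2 (ENSMUSG00000028270.12, at 142620602 to 142638008), a membrane-anchored member, had 1677, 1145 and 256 TPM in tumours 1, 2 and 3, a mean of 1026 ± 718 (SD, n = 3), and was the most abundant member in every tumour. In CPM it had 1293, 1054 and 213, so its level in tumour 3 was 6.07-fold below tumour 1 and 4.94-fold below tumour 2. Its mean TPM exceeded that of 99.1% of the 11478 genes that passed the filter on low counts.

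Gbp2b (ENSMUSG00000040264.10, at 142594847 to 142619179) showed the widest range of the family. Its levels were 147, 146 and 9.71 TPM, with 1958, 2166 and 139 reads. Tumours 1 and 2 lay side by side for this gene, and tumour 3 was 13.96-fold below the former and 16.6-fold below the latter in CPM. Gbp2b and Gbp2 are neighbours on the chromosome and the closest relatives in this cluster, with 82.5% of aligned coding bases identical. Their ratio was not fixed, since Gbp2 exceeded Gbp2b 11.4-fold, 7.85-fold and 26.3-fold in TPM in tumours 1, 2 and 3.

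Gbp3 (ENSMUSG00000028268.14, at 142560026 to 142573209) varied least within the cluster. It had 399, 357 and 160 TPM, the second level of the family in every tumour, with differences in log2(CPM + 1) of -1.20 for tumour 3 minus tumour 1 and -1.29 for tumour 3 minus tumour 2. In CPM tumours 1 and 2 lay close together, at 400 and 426. Gbp7, studied for its part in the assembly of the phagocyte oxidase, had 110, 57.2 and 18.9 TPM, and Gbp5, a membrane-anchored member linked to inflammasomes, had 51.3, 37.9 and 9.54 TPM. Both followed the order tumour 1, tumour 2, tumour 3, and tumour 3 was 5.39-fold and 4.98-fold below tumour 1 in CPM.

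**Figure D2:**
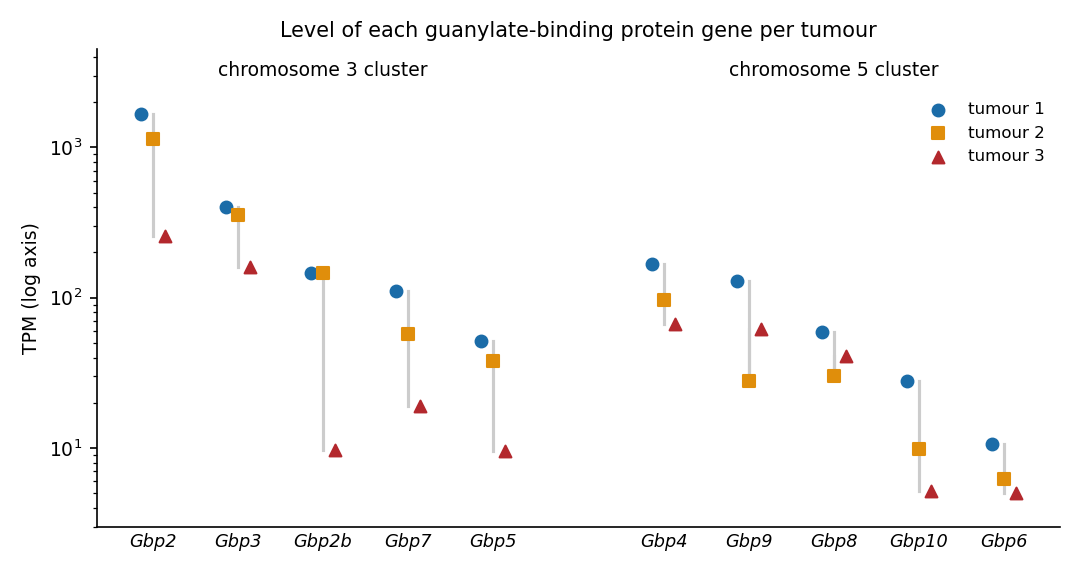
TPM of each gene (log axis) in tumour 1 (circles), tumour 2 (squares) and tumour 3 (triangles), with the genes grouped by cluster and ordered by mean level; each point is 1 library. In all 5 chromosome 3 genes the triangle is the lowest point, while Gbp8 and Gbp9 on chromosome 5 are lowest in tumour 2.

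The chromosome 5 cluster did not share this order throughout. Gbp4 had 167, 95.9 and 66.4 TPM and was lowest in tumour 3, 2.32-fold below tumour 1 and 1.595-fold below tumour 2 in CPM. Gbp9 had 129, 28.1 and 61.7 TPM, so tumour 2 was the lowest, 3.83-fold below tumour 1 and 1.99-fold below tumour 3 in CPM. Gbp8 had 58.7, 30.3 and 41.2 TPM, also lowest in tumour 2, and its range of 1.62-fold in CPM was the narrowest of the family.

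Little is known of the products of these chromosome 5 genes compared with Gbp2 or Gbp5. Gbp10 had 28.0, 9.87 and 5.15 TPM, and Gbp6 had 10.6, 6.23 and 5.04 TPM. Both were highest in tumour 1 and lowest in tumour 3, and tumours 2 and 3 lay close together for Gbp6. All 5 chromosome 5 genes were highest in tumour 1.

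Across the family, 8 of 10 members were lowest in tumour 3, where 33.0% of all 11478 genes that passed the filter were. In tumour 3, 7 of 10 members were more than 2-fold below tumour 1 (7.86% of all genes) and 5 of 10 more than 2-fold below tumour 2 (5.92% of all genes), in log2(CPM + 1). The latter 5 were the chromosome 3 members. That split rests on the added 1, since Gbp10 on chromosome 5 was 2.12-fold below tumour 2 in CPM itself. The median difference in log2(CPM + 1) over the 10 members was -1.69 for tumour 3 minus tumour 1 and -1.14 for tumour 3 minus tumour 2, against 0.0021 and -0.021 over all genes. On chromosome 3 alone the medians were -2.40 and -2.08, and on chromosome 5 they were -0.94 and -0.41. The values of tumour 3 enter both differences. All 10 members passed the filter. Because the family was picked for this contrast, nothing is read from these shares. No member changed its lowest tumour when size factors replaced the TMM factors or when no factor was used.

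**Figure D3:**
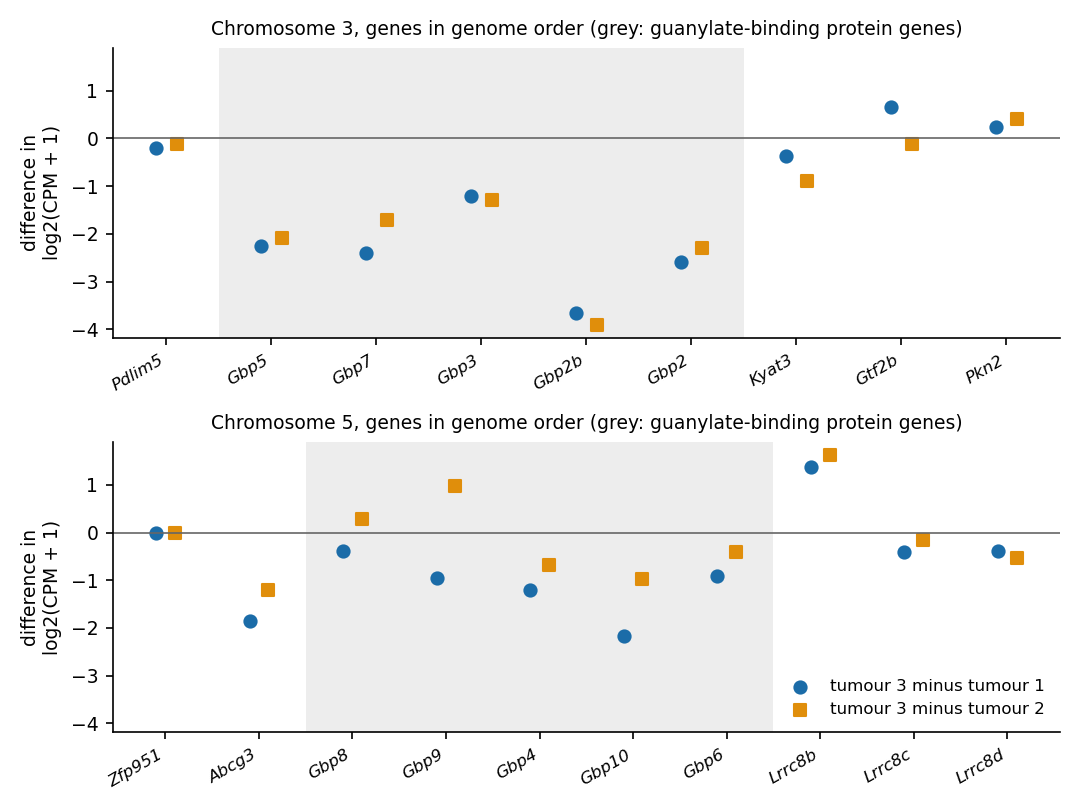
Difference in log2(CPM + 1) of tumour 3 minus tumour 1 (circles) and tumour 3 minus tumour 2 (squares) for the members (grey) and the nearest protein-coding genes with a count on each side, in genome order. The chromosome 3 members lie between -1.20 and -3.91, and the genes beside them lie between -0.90 and 0.65.

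The genes beside the clusters were read in the same way. Of the nearest 3 protein-coding genes on each side of each cluster, 11 were looked up, and BC005561 was not analysed here. Bmpr1b and Unc5c had no read in any tumour. Of the 11, 7 passed the filter. An edgeR quasi-likelihood test, which asks whether a gene differs between tumours by more than genes of like abundance do, called 0 of them (adjusted p from 0.651 to 0.999). At an unadjusted p below 0.05 there was 1, and limma-voom called 0. Pdlim5, 98.3 kb before Gbp5, had 36.9, 34.7 and 32.2 CPM in tumours 1, 2 and 3, and Kyat3, 63.0 kb after Gbp2, had 27.3, 39.9 and 20.9 CPM. Gtf2b, which encodes a general transcription factor, had 35.3, 61.0 and 56.0 CPM and was lowest in tumour 1. The differences of these neighbours lay between -0.90 and 0.65 in log2(CPM + 1), and those of the 5 members between them from -1.20 down. Beside the chromosome 5 cluster, Abcg3, a transporter gene 31.4 kb from Gbp8, had 70, 36 and 8 reads and did not pass the filter. Lrrc8b on the other side was highest in tumour 3, with 17, 11 and 68 reads.

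The make-up of the family also differed between tumours. Gbp2 held 60.4%, 59.9% and 40.4% of the summed TPM in tumours 1, 2 and 3, and Gbp3 held 14.4%, 18.6% and 25.3%. The chromosome 3 genes together held 85.9%, 91.1% and 71.7%, a mean of 82.9% ± 10.0 (SD, n = 3). Their summed level was 6.07, 10.2 and 2.53 times that of the chromosome 5 genes. The summed chromosome 5 level was 393, 170.4 and 179 TPM, so tumours 2 and 3 lay close together there, while the chromosome 3 sum was 2384, 1743 and 454 TPM.

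**Figure D4:**
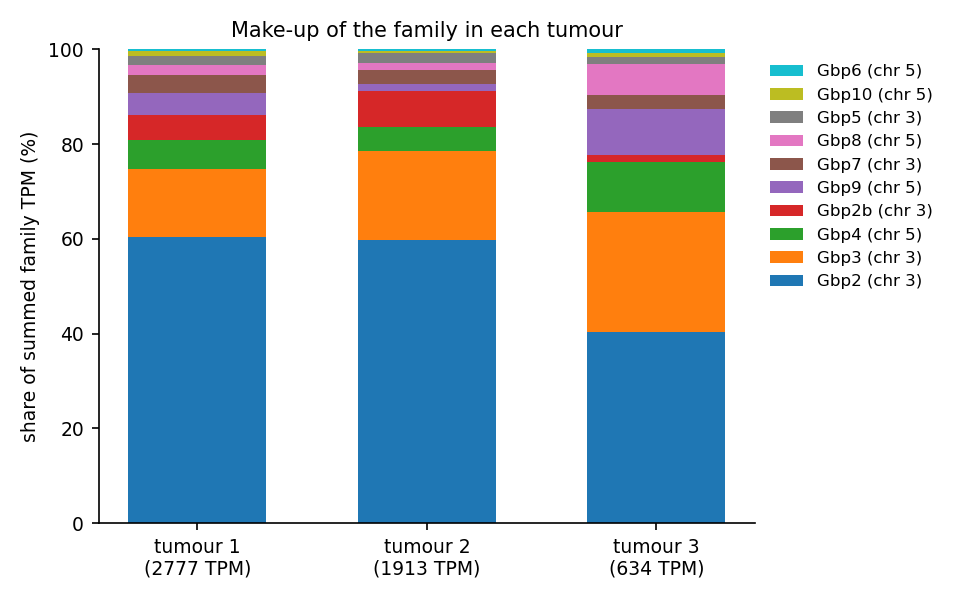
Share of the summed family TPM held by each gene (stacked bars, percent) in tumours 1, 2 and 3, with the summed TPM under each bar. The share of Gbp2 is 60.4% and 59.9% in tumours 1 and 2 and 40.4% in tumour 3.

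Ordered by mean log2(TPM + 1), the members ran Gbp2 (9.63), Gbp3 (8.15), Gbp4 (6.69), Gbp9 (5.95), Gbp2b (5.94), Gbp7 (5.66), Gbp8 (5.42), Gbp5 (4.80), Gbp10 (3.64) and Gbp6 (2.996). Of the 9 neighbouring pairs in this order, 3 differed by more than the SD of their difference. Gbp2 exceeded Gbp3 by 1.47 ± 0.72 (SD, n = 3) in log2(TPM + 1), Gbp3 exceeded Gbp4 by 1.47 ± 0.36, and Gbp5 exceeded Gbp10 by 1.16 ± 0.59, each in 3 of 3 tumours. The two-sided exact sign-flip p was 0.25 for each, the smallest that 3 tumours allow, and 0.45 after Benjamini-Hochberg adjustment over the 9 pairs. The other 6 pairs did not differ beyond their spread. Gbp2b in particular stood 4th in tumour 1, 3rd in tumour 2 and 7th in tumour 3, and Gbp9 stood 5th, 8th and 4th.

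How far reads can be assigned differs strongly within the family and bears on these levels. Of the 50-nt windows in the GENCODE M21 transcripts of each gene, 98.0% for Gbp2, 98.2% for Gbp2b, 96.3% for Gbp3 and 98.6% for Gbp5 occurred in no other gene. The share was 92.2% for Gbp4, 91.95% for Gbp9, 87.3% for Gbp7 and 81.9% for Gbp8. For Gbp6 it was 29.4% and for Gbp10 15.9%. The coding parts of Gbp6 and Gbp10 are 98.4% identical, and both overlap Gm43302, an annotated gene on the same strand that covers 29.0% and 46.3% of their exon bases and was not analysed here. For Gbp7, 11.4% of exon bases lie in another annotated gene on its strand, Gm43802.

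Counts of Gbp6 and Gbp10 are therefore uncertain, both against each other and as levels. When counts were divided by the number of windows found in no other gene, the mean log2 level of Gbp10 was 6.19 rather than 3.64, and Gbp5 minus Gbp10 turned from 1.16 to -1.40. That of Gbp6 was 4.59 rather than 2.996. For Gbp2 and Gbp2b the level moved from 9.63 to 9.66 and from 5.94 to 5.99. Gbp4, Gbp8 and Gbp9 begin at nearly the same base in the annotation and share 60 or 61 exon bases there.

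Other genes of the interferon gamma pathway were read from 5 lists with 61 genes in the counts. Of these, 49 passed the filter and 2 were called by the edgeR variability test, Cxcl9 and Samd9l, at adjusted p of 0.0299 and 0.0490, where 0.139% of all genes were called. Cxcl9, a chemokine that recruits T cells, had 51.1, 106 and 5.62 CPM, and Samd9l, an antiviral restriction factor gene, had 44.9, 9.95 and 2.03 CPM. Neither call was made when no scaling factor was used, when a mean count of 10 was the filter, or without any 1 of the tumours. Over the 49 genes, 29 were lowest in tumour 3, as were 33.0% of all genes, and 12 were more than 2-fold below both other tumours, where 2.80% of all genes were. Of the 12, 6 were immunity-related GTPases. The median difference in log2(CPM + 1) over the 49 genes was -0.29 for tumour 3 minus tumour 1 and -0.44 for tumour 3 minus tumour 2. The lists were written with earlier results of these data known, so nothing is read from these counts or from those of each list below.

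Of the 14 receptor and signalling genes, 13 passed the filter and 0 were called by the edgeR test, with 3 at an unadjusted p below 0.05 and 0 called by limma-voom. The receptor genes Ifngr1 and Ifngr2 had 34.9 ± 4.45 and 86.7 ± 3.61 CPM (SD, n = 3), the kinase genes Jak1 and Jak2 184 ± 32.3 and 45.0 ± 8.73 CPM, and Irf1 256 ± 28.1 CPM. Of the 13, 6 were lowest in tumour 3, where 33.0% of all genes were. Irf1 was among these, at 229 CPM against 254 and 285. Irf8, a factor of the B cell and myeloid lineages, had 446, 1228 and 898 CPM. Of the 10 genes that restrain the pathway, 9 passed the filter and 0 were called by edgeR or by limma-voom, with 0 at an unadjusted p below 0.05. Of the 9, 5 were lowest in tumour 3, 3 in tumour 2 and 1 in tumour 1. Ptpn6, the most abundant, had 438, 581 and 275 CPM. The 1 lowest in tumour 1 was Socs1, the gene of a feedback inhibitor, with 24.5, 41.7 and 36.9 CPM. None of the 6 interferon genes in the counts passed the filter. Ifng had 8, 22 and 3 reads, and Ifnb1 and Ifnl3 had none, which allows up to 3 reads per library, 0.194, 0.209 and 0.196 CPM.

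Immunity-related GTPases are a second interferon-induced family that acts with guanylate-binding proteins on vacuoles. All 9 that passed the filter were lowest in tumour 3, and 6 of 9 were more than 2-fold below both other tumours (33.0% and 2.80% of all genes), but 0 were called by the edgeR test (adjusted p 0.262 to 0.997). At an unadjusted p below 0.05 there were 3, and limma-voom called 0. Iigp1 had 283, 281 and 68.1 CPM, Irgm1 155, 172 and 74.8 CPM, Igtp 113, 161 and 68.1 CPM and Irgm2 57.1, 45.5 and 12.9 CPM. Their medians in log2(CPM + 1) were -1.20 against tumour 1 and -1.23 against tumour 2. Of the 20 other genes induced by interferon gamma 18 passed the filter. Of those, 9 were lowest in tumour 3, 7 in tumour 1 and 2 in tumour 2. More than 2-fold below both other tumours in tumour 3 were 4 of the 18, Cxcl9 and Samd9l among them. Among the most abundant of the 18, Psmb8, an immunoproteasome gene, had 279, 566 and 428 CPM, and the peptide transporter gene Tap1 had 636, 698 and 605 CPM. B2m, which encodes the light chain of class I molecules, had 3424, 4911 and 3623 CPM.

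**Figure D5:**
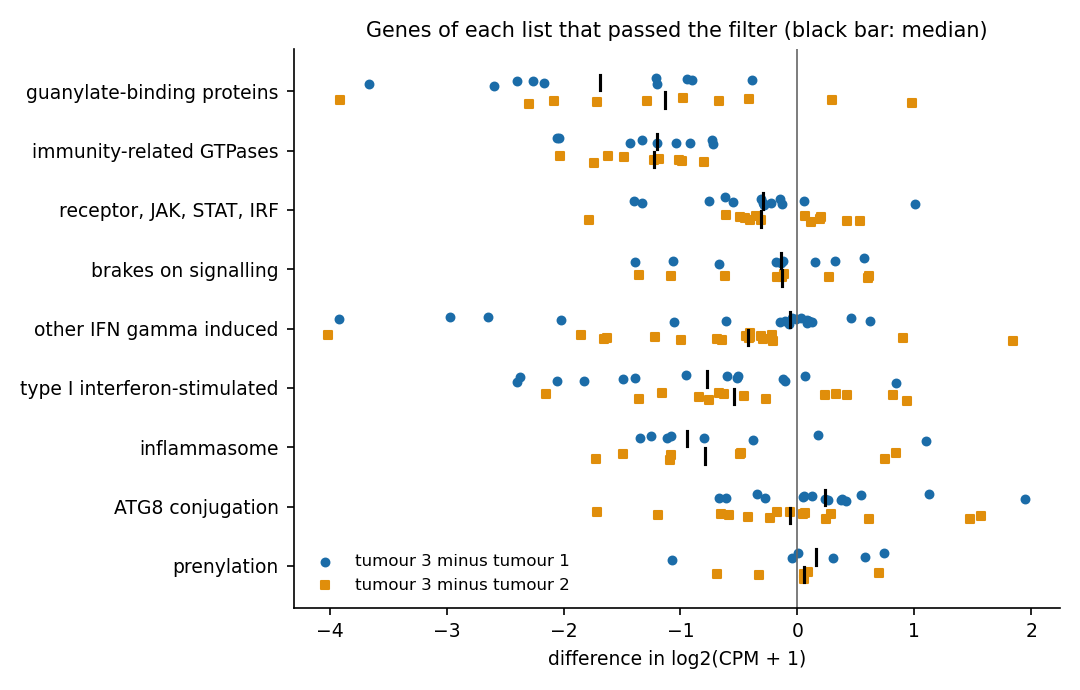
Difference in log2(CPM + 1) of tumour 3 minus tumour 1 (circles) and minus tumour 2 (squares) for the genes of each list that passed the filter, with the median as a black bar. The medians of the immunity-related GTPases are -1.20 and -1.23, those of the receptor and signalling genes -0.29 and -0.32, and those of the prenylation genes 0.16 and 0.06.

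Of 18 genes stimulated mainly by type I interferon 14 passed the filter, 9 were lowest in tumour 3 and 0 were called by the edgeR test (smallest adjusted p 0.166), with 4 at an unadjusted p below 0.05 and 0 called by limma-voom. Zbp1, a sensor of Z-form nucleic acid, had 111, 93.2 and 20.2 CPM, Oas3 had 48.5, 20.3 and 8.56 CPM, and Mx1, a dynamin-like antiviral GTPase, was highest in tumour 3 with 26.2, 24.4 and 47.8 CPM.

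Genes whose products work beside guanylate-binding proteins were also read. Of 10 inflammasome genes 8 passed the filter, 6 were lowest in tumour 3 and 0 were called by edgeR (smallest adjusted p 0.579) or limma-voom, with 1 at an unadjusted p below 0.05. Casp4, which encodes the caspase that senses lipopolysaccharide, had 101, 99.2 and 46.2 CPM, Gsdmd, the gene of the pore former of pyroptosis, 79.8, 104 and 30.7 CPM, and Aim2, a DNA sensor gene, 128, 85.6 and 145 CPM. The 6 genes of prenylation, which attaches lipid to proteins such as Gbp2 and Gbp5, and of its end processing all passed. Of these, 1 of 6 was lowest in tumour 3. That gene, Pggt1b, which encodes a subunit of the enzyme that attaches geranylgeranyl groups, had 116, 88.9 and 54.9 CPM. All 15 genes of ATG8 conjugation and vacuole targeting passed, and 3 of 15 were lowest in tumour 3, with 0 called by edgeR or limma-voom in either list and 0 and 3 genes at an unadjusted p below 0.05. Gabarap was at 177 ± 19.2 CPM and Sqstm1 at 146 ± 3.23 CPM. Pim1, a kinase gene known to restrain human GBP1, had 318, 246 and 361 CPM.

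The labelled cell type was checked against its markers, and other cells in the sort were looked for. All 10 B cell markers exceeded 1 CPM in every tumour, with summed levels of 4998, 2917 and 2850 CPM, and 6 of 10 were lowest in tumour 3. The summed B cell markers thus ran in the same order as the summed family. So did those of conventional dendritic cells, given below, and those of neutrophils, at 59.5, 22.3 and 3.79 CPM. All 9 neutrophil markers were lowest in tumour 3, where 33.0% of all genes that passed the filter were. Only 2 of the 9 passed it, S100a8 and Ngp, and several had few reads, such as Elane with 9, 9 and 1. The edgeR test called 0 of the 2 (smallest adjusted p 0.12), with 2 at an unadjusted p below 0.05, and limma-voom called 0. Of 8 natural killer cell markers 5 were lowest in tumour 3, with sums of 20.7, 31.7 and 9.35 CPM, with Ncr1 at 0 in tumour 1 and Klrb1c and Klra8 at 0 in tumour 3. Macrophage markers summed to 158, 207 and 152 CPM, of which Cd68 gave 139, 124 and 142, and 6 of the 11 with a count were lowest in tumour 3. C1qa, with 9, 102 and 19 reads, C1qb, with 16, 103 and 9, and C1qc, with 10, 103 and 12, were highest in tumour 2. Some other markers, Cd68 among them, were highest in tumour 1 or tumour 3. Vsig4 was at 0 in all 3 tumours. In that list Lyz2, with 7.58, 56.2 and 4.05 CPM, was called by the edgeR test (adjusted p = 0.0372) and not by limma-voom.

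T cell markers summed to 80.9, 64.1 and 112 CPM, to which Cd8b1 alone gave 24.7, 18.8 and 55.2. The sum was highest in tumour 3, but not every marker was. Cd3d, Cd3e and Trac were highest in tumour 2, Cd5 and Lck in tumour 1, and the rest in tumour 3. Of the 11 markers 2 were lowest in tumour 3, among them Lck with 31.2, 11.8 and 9.41 CPM. Endothelial markers summed to 156, 140 and 160 CPM, nearly all from Pecam1, with Emcn at 0 in all 3 tumours and Kdr and Tek at 0 in tumours 2 and 3. Conventional dendritic cell markers summed to 37.4, 29.4 and 22.0 CPM, 4 of 6 being lowest in tumour 3 and Clec9a at 0 there. The part of these cells in the levels of guanylate-binding proteins was not tested.

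Among 10421 other genes that passed the filter and have a name other than a Gm or Rik label, the 10 whose profile over the 3 tumours lay nearest to that of the family were Ms4a1, Trim12c, Cyb5rl, Il27ra, Ccdc18, Cenpe, Zfp638, Isg20, Zfp808 and Pitpnm1. Nearness was the Euclidean distance between log2(CPM + 1) values centred on the mean of each gene and the median of the centred members, which was 0.88, 0.19 and -0.94 in tumours 1, 2 and 3. It ran from 0.0806 for Ms4a1 to 0.138 for Pitpnm1. Ms4a1, the B cell gene of CD20, had 923, 569 and 256 CPM, and Isg20, an interferon-induced exonuclease gene, had 22.8, 12.5 and 5.36 CPM. With 3 tumours, this is a description of these libraries.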

How the data were processed

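Each deposited file holds the authors' counts of reads per gene for 1 library, with no normalization. The submitters' processing notes name FastQC, STAR 2.5.2b, featureCounts 1.6.0 and the build mm10. Strand use, the treatment of reads with several matches and the annotation release were not given in the sources used here. Of 37646 genes, 37536 had a length in GENCODE M21.

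CPM came from edgeR 4.0.16 (R 4.3.3) with TMM scaling factors of 1.02, 0.959 and 1.02, and TPM from union exon lengths. The function filterByExpr kept 11478 genes. The one-sided edgeR test, with an intercept alone in the model, set each gene's quasi-likelihood dispersion against the trend of all genes, and p-values were adjusted by the Benjamini-Hochberg method across those genes. The tumours make up 1 group, and their numbers follow the order of accession and are only names. Alternatives changed the scaling (size factors of DESeq2 1.42.0, or none), the filter, the tool (limma 3.58.1 with voom), the length or the pseudocount of 1, or left out a tumour.

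All 10 members were described. Named in each list were the genes called, some of the 6 most abundant, and markers at 0. Jak2, Ifngr1, Ifngr2 and Gbp11 lie outside that rule and were added after their values were seen. Elane, Cd3d, Cd3e and Cd5 also lie outside it. Coding parts were aligned globally in pairs, with identity over all alignment columns. The members and lists were chosen with earlier results of these data known. A result on a withheld item is not reported here.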

Additional observations from a re-analysis of the deposited data

How the results depend on the processing

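The edgeR variability test called 16 of 11478 genes. With no scaling factor, only the totals over the genes that passed the filter, it called 0 (711 at an unadjusted p under 0.05), with a filter on a mean count of 10 it called 0 (781), without robust estimation of the prior variance, an alternative chosen after seeing the data, 0 (571), with limma-voom 8, and with no filter 164. Leaving out 1 tumour gave 0 to 11 calls: 0 without tumour 1 (654 at an unadjusted p under 0.05), 0 without tumour 2 (606) and 11 without tumour 3. Of the 11, only 6 were among the 16. Of the 49 interferon gamma pathway genes tested, 2 were called; this was 1 with DESeq2 size factors, 0 with no scaling factor (10 at an unadjusted p under 0.05), 0 with the mean filter (11), 0 without robust estimation (9), 1 with limma-voom, 5 with no filter, and 0 to 0 with 1 tumour left out (7 to 13). The cause was not tested. No flanking gene was called under any of these settings.

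Mean CPM of each of the 10 members moved by less than its SD under both other scalings. Without tumour 1 that of Gbp10 went from 17.9 to 10.3 and that of Gbp9 from 121 to 79.5, the moves of over 1.5 times among members when 1 tumour was left out. Of the differences in log2(TPM + 1) between members next to each other in level, Gbp2b minus Gbp7 was 0.28, and -0.69 without division by length. Gbp8 minus Gbp5 was 0.63, -0.14 with the longest transcript as length and -0.29 without division by length. Gbp5 minus Gbp10 was -1.40 with windows found in no other gene, which are few in Gbp10. With 1 tumour left out, Gbp9 minus Gbp2b ran from -1.26 to 1.18, Gbp2b minus Gbp7 from -0.24 to 0.87, Gbp7 minus Gbp8 from -0.095 to 0.90 and Gbp8 minus Gbp5 from -0.061 to 1.10. The other 4 pairs kept their direction under every setting tried. No paired analysis was possible because all tumours belong to 1 group.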

Other observations

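Annotated guanylate-binding protein genes outside the 10 members had few reads. Gbp11, annotated as a polymorphic pseudogene beside Gbp6 on chromosome 5, had 41, 16 and 14 reads in tumours 1, 2 and 3, and the pseudogene Gbp2-ps had 0, 0 and 1. Of the atlastins, endoplasmic reticulum GTPases with a related fold, Atl2 had 53.4 ± 0.540 CPM (SD, n = 3) and Atl3 115 ± 23.7 CPM.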
